A study of Mus musculus with 24 samples.

Results

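The response of aged muscle to a week of glucocorticoid was followed in 12 of the study's 24 libraries, all from the tibialis anterior of male C57BL/6 mice that were 24 months old. The tibialis anterior, which lifts the foot, is made mostly of fast fibres, and C57BL/6 is an inbred laboratory strain. In the dexamethasone group, 6 libraries came from mice injected under the skin each day with 1 mg/kg/day of dexamethasone, a synthetic agonist of the glucocorticoid receptor, over 7 days. The vehicle group, also of 6 libraries, came from mice of the same sex, age and strain injected with saline on the same schedule. All mice had the muscle taken under isoflurane 6.5 h after the last injection, and treatment had been randomised between groups of equal body weight. The other 12 libraries of the study came from mice of 4 months under the same 2 treatments and enter below only where the ages are set against each other. A gene was included where its mean over the 12 aged libraries was at least 3 and its values were not all the same, which left 12932 of the 24982 genes in the table. Whole muscle holds fibres, vessels, stromal and immune cells, so each value is a mixture, and only 1 sex was sampled.

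Glucocorticoids diffuse into the cell and bind a cytosolic receptor held by chaperones. The bound receptor moves to the nucleus, where it induces some genes by binding DNA directly and represses others, many of them inflammatory, largely by acting on other transcription factors. In skeletal muscle these hormones are known for raising protein breakdown, restraining protein synthesis, opposing insulin and shifting fuel use toward fat and amino acids, and prolonged exposure causes wasting, mainly of fast fibres.

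Values are regularised logarithms of read counts (rlog), a log2 scale on which a difference of 1 is a doubling, and a difference below is the dexamethasone mean minus the vehicle mean with its standard error (SE). Shrinkage in that transform understates the change of weakly expressed genes, and as counts were not used here the depth behind a value was unknown. All 15 muscle fibre marker genes were measured, among them Ckm, Acta1 and Myh4, with a log2 summed level of 20.98 to 21.14 with vehicle and 21.06 to 21.24 with dexamethasone, and none passed the test in limma in either direction, nor at an unadjusted p under 0.05 (0 of 15). The first principal component, holding 31.6% of the variance, put all dexamethasone libraries below all vehicle libraries. Vehicle 1 stood apart from the rest of its group: its score was −2.56, against 7.55 to 17.8 in the other vehicle libraries and −15.4 to −3.76 with dexamethasone, and the library it correlated with best was dexamethasone 3. Vehicles 2 and 5 shared a high level of Hspa1a, the inducible heat shock protein HSP70, at 12.35 and 11.93, where the other vehicle libraries were at 8.19 to 9.17 and the dexamethasone libraries at 8.14 to 10.19. A call that ends, or a count of called genes that moves by more than 1.5 times, without vehicle 1 or without vehicles 2 and 5 is given both ways. Medians of lists, many of them near 0, and differences of genes not called can also move by more or change sign. These are given both ways only in part.

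**Figure D1:**
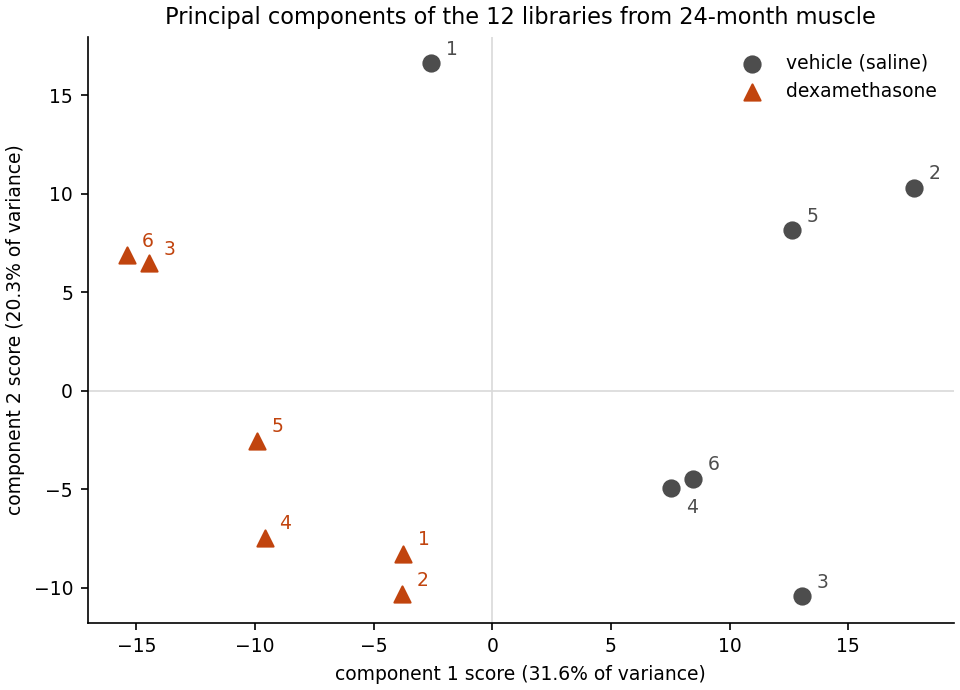
Scores of the 12 libraries from 24-month muscle on the first and second principal components (31.6% and 20.3% of the variance), with circles for vehicle, triangles for dexamethasone and the replicate number beside each point. Vehicle 1, at −2.56 on the horizontal axis, lies between the other vehicle libraries and the dexamethasone libraries and is the highest on the vertical axis, at 16.6.

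Dexamethasone changed 822 genes at a limma adjusted p under 0.05, which is 6.36% of those tested. Of these, 533 were higher (4.12%) and 289 lower (2.23%). Most changes were modest: the median absolute difference was 0.38 among called genes and 0.06 among all genes, with 28 rises of at least 1 and 5 falls of at least 1. All 6 dexamethasone libraries lay above all 6 vehicle libraries in 380 genes (2.94% of those tested) and below them in 163 (1.26%). Leaving out vehicle 1 gave 614 higher and 433 lower genes, and leaving out vehicles 2 and 5 gave 402 and 141. Without vehicle 1 the genes lying wholly below vehicle numbered 304. Leaving out any library can only keep or raise such a count in the same genes. With each library left out in turn it ran from 178 to 304. Unless a sentence says otherwise, each gene given below by name as having risen or fallen kept its call in all 12 fits that each dropped 1 library, called the reduced fits. Counts of list members include genes that kept their call in fewer. Of those named below with fewer, 1810041H14Rik, Bhlhe40, Col4a3, Eng, Erg, Gbp2, H2-Q4, Pfkfb1, Tbx15, Tnfrsf1a, Musk, Cdkn1a, Fbln5, Serpinh1 and Timp4 also lost their call without vehicles 2 and 5. Kcnj11, Pfkfb1 and H2-Q4 lost theirs without vehicle 1 (limma adjusted p from 0.0600 to 0.0666).

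Lcn2 and Greb1 had the largest rises of the genes named by size and differed in how cleanly they separated the groups. Greb1 (chr12:16670615-16801394, minus strand, with exons overlapping the opposite-strand gene Gm48140 in GENCODE), known as an oestrogen-responsive co-regulator of nuclear receptors, was at 5.78, 5.85 and 6.07 in the lowest, median and highest vehicle library. With dexamethasone the same 3 values were 7.87, 8.06 and 8.22, a gap between the groups several times wider than either group. The rise was 2.17 ± 0.07 (SE), or 4.50-fold (adjusted p = 7.53e-10). Ptprf (chr4), a receptor tyrosine phosphatase of the LAR family that acts on the insulin receptor, went from 6.64, 6.78 and 7.02 to 8.59, 8.71 and 8.85 (1.90 ± 0.08, adjusted p = 6.73e-09). Dab2ip, a Ras GTPase-activating scaffold, showed the narrowest vehicle group of these, at 11.86, 11.90 and 11.96, and rose to 12.48, 12.56 and 12.67 (0.66 ± 0.04, adjusted p = 2.94e-07). Lcn2, the iron-siderophore binder lipocalin 2, was the less tidy of the top pair, because its vehicle libraries spread from 7.74 through a median of 8.31 to 10.03, the highest being vehicle 1. Its dexamethasone libraries, at 10.40, 10.74 and 11.27, were all higher still (2.18 ± 0.34, adjusted p = 0.00163).

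Other genes with large statistics rose as follows. Pag1, a membrane adaptor that recruits the inhibitory kinase Csk, rose from 6.84, 6.99 and 7.28 to 8.38, 8.92 and 9.35 (1.86 ± 0.13, adjusted p = 2.58e-06). Doc2b, a calcium sensor of vesicle exocytosis that helps insulin-driven glucose transporter traffic, rose from 7.94, 8.05 and 8.39 to 9.16, 9.32 and 9.34 (1.18 ± 0.07, adjusted p = 9.89e-07). Osbpl11, an oxysterol-binding lipid transporter, rose by 0.70 ± 0.04 with the same adjusted p of 9.89e-07, from 9.13 to 9.35 with vehicle to 9.82 to 9.97 with dexamethasone. None of these 3 genes had overlapping groups. Ndrg1, a stress-responsive gene, rose by 0.89 ± 0.07 (adjusted p = 1.45e-05), and Rin2, which activates the endosomal GTPase Rab5, by 1.03 ± 0.07 (adjusted p = 1.95e-06). Net1, a guanine nucleotide exchange factor, rose by 1.20 ± 0.11, and Rnf169, a ubiquitin-binding protein of the DNA damage response, by 1.55 ± 0.14, both at an adjusted p of 2e-05.

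Falls were fewer, and fewer of them reached 1 on the log2 scale. Slc28a2, a purine nucleoside transporter, was at 7.44, 7.54 and 7.63 with vehicle and at 6.68, 6.79 and 6.93 with dexamethasone, without overlap (−0.75 ± 0.05, adjusted p = 1.95e-06). Pdgfa, a ligand of platelet-derived growth factor receptors, fell from 8.50, 8.60 and 8.70 to 8.12, 8.17 and 8.23 (−0.41 ± 0.04, adjusted p = 7.22e-05). Ppp1r27, a regulatory subunit of protein phosphatase 1, fell from 9.60, 10.07 and 10.98 to 8.36, 8.79 and 9.01 (−1.43 ± 0.20, adjusted p = 8.02e-04). In these 3 genes every dexamethasone library lay below every vehicle library. Lmna, which encodes the nuclear lamins A and C, fell by 0.36 on the log2 scale (SE 0.05, adjusted p = 6.28e-04), and Cxxc5, a zinc finger protein that restrains Wnt signalling, by 0.76 (SE 0.06, adjusted p = 1.79e-05). Rrad, a small GTPase that inhibits voltage-gated calcium channels, had the largest fall of the genes named by size (−1.78 ± 0.37, adjusted p = 0.0105) but overlapping groups: vehicle libraries ran from 7.61 through 9.32 to 10.06 and dexamethasone libraries from 6.92 through 7.19 to 8.13. Its call ended without vehicles 2 and 5 (adjusted p = 0.0624) and where all 4 groups of the study shared 1 estimate of the spread (0.0684).

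**Figure D2:**
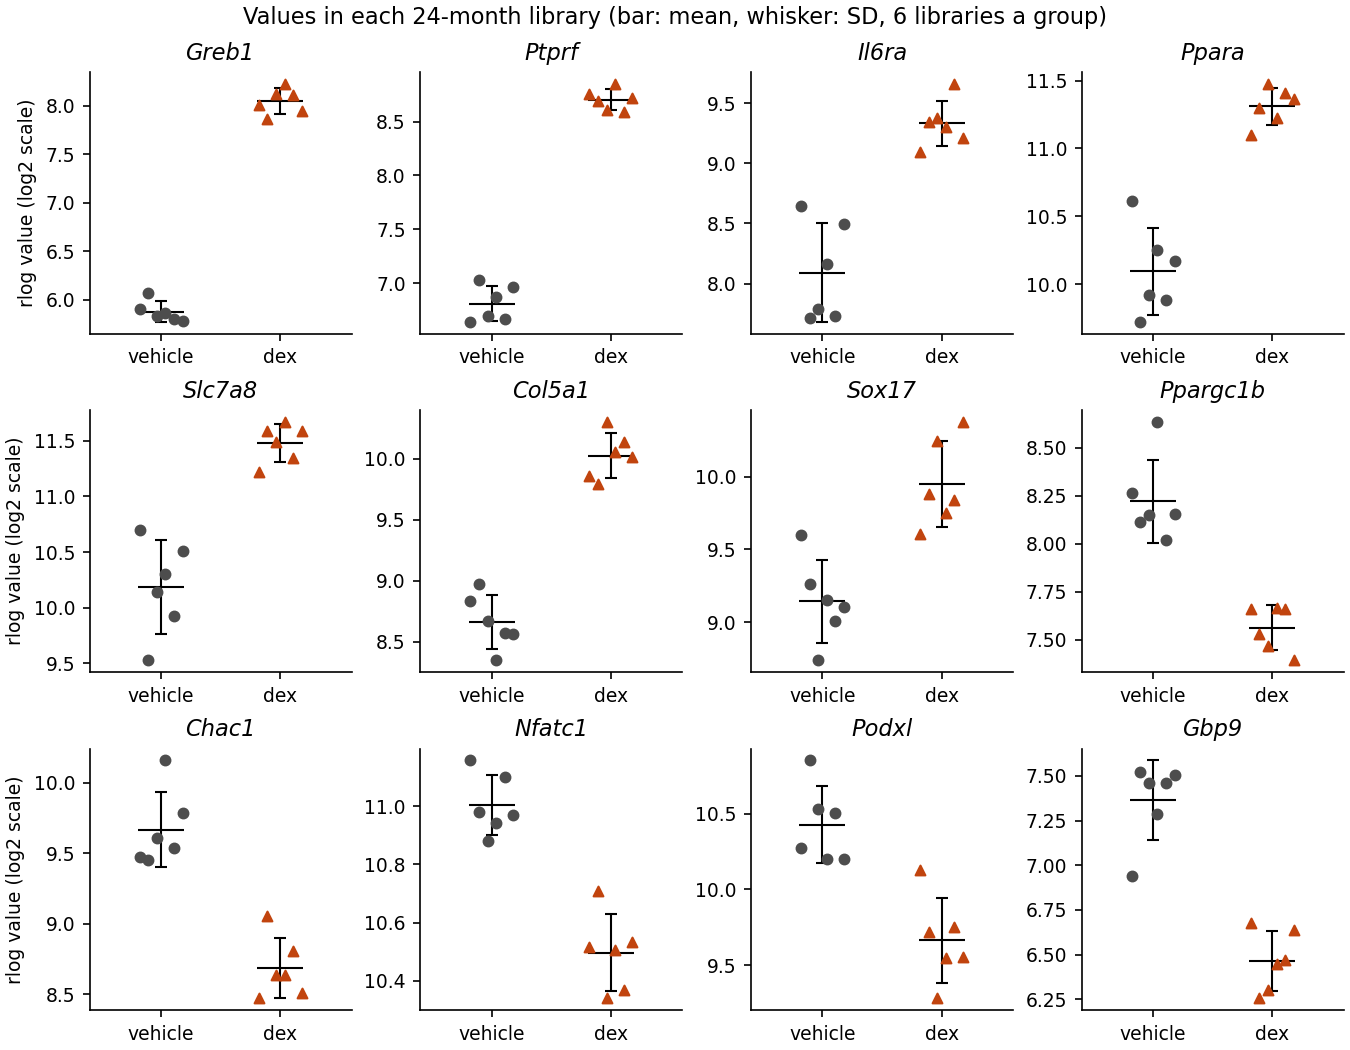
The rlog value (log2 scale) of 12 genes in each 24-month library, circles for vehicle and triangles for dexamethasone, 6 libraries a group, with a bar at the mean and whiskers of 1 SD; each panel has its own vertical range. In every panel the groups are separate, by a wide gap in Greb1 (highest vehicle 6.07, lowest dexamethasone 7.87) and a narrow one in Sox17 (9.60 and 9.61).

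Promoters of the named genes were searched for the palindrome that the glucocorticoid receptor binds, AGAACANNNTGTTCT, which reads the same on both strands, in the 250 bases before each annotated start, and a window counted as a match with at most 2 mismatches in the 12 fixed letters. Such a match was present in 511 of 32851 promoters in all, or 1.56%. Of the 28 named genes that rose by the largest amounts or statistics and of which 20 had an entry, 0 of 29 promoters matched. Of the 28 that fell, 15 had an entry, and 2 of 20 promoters matched, those of Lmna and Mid1ip1. A match is a stretch of letters and not evidence of binding, and receptor sites outside these windows were not searched. The windows of both matching genes and of the cleanest risers are shown, 5′ to 3′ on the gene's strand, from RefSeq on GRCm38.p6, with the matched 15 bases in capitals. Lmna is at chr3:88503353-88503602 (minus strand), its match beginning at position −113 from the start, and Mid1ip1 at chrX:10717115-10717364 (plus strand), its match beginning at −74. Ptprf is at chr4:118291398-118291647 (minus strand), and the Greb1 window, the more upstream of its pair, at chr12:16800887-16801136 (minus strand).
Lmna: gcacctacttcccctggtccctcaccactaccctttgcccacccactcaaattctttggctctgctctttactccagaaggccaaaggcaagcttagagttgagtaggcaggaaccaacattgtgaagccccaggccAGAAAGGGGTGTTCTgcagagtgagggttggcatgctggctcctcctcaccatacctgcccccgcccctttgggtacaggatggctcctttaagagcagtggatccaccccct
Mid1ip1: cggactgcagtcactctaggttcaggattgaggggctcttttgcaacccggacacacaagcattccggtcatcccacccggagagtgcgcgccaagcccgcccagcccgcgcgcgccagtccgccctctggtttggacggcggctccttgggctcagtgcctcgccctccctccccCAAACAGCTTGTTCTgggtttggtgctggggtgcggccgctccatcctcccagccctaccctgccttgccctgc
Greb1: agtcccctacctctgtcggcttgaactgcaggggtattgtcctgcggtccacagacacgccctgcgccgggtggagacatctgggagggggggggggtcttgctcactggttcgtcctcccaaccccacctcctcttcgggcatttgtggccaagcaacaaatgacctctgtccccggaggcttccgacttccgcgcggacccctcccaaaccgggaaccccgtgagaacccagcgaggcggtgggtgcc
Ptprf: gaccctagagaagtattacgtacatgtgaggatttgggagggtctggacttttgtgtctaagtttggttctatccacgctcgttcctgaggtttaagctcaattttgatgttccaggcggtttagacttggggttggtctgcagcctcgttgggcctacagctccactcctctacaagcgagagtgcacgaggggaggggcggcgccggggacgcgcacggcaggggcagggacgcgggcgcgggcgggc
Mid1ip1, which stimulates fatty acid synthesis through acetyl-CoA carboxylase, fell by 0.72 on the log2 scale (SE 0.17, adjusted p = 0.0221). Its call ended without dexamethasone 4 or dexamethasone 5 (adjusted p up to 0.0540), without vehicles 2 and 5 and with a spread shared by 4 groups (adjusted p up to 0.0758 over all settings).

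The receptor itself and its helpers were the starting point for the pathway lists, and the share of members called in each list is read against the 4.12% and 2.23% of all genes. Nr3c1, the glucocorticoid receptor gene, was at 10.44, 10.61 and 11.54 with vehicle and 10.30, 10.61 and 10.86 with dexamethasone (−0.17 ± 0.16, adjusted p = 0.678). Among 22 genes of the receptor and its chaperones, co-factors and feedback regulators, 3 rose and 0 fell (limma, 1 lower at an unadjusted p under 0.05), with a median difference of 0.02 beside −0.0029 over all genes. Fkbp5, a co-chaperone that lowers the receptor's affinity for hormone, rose from 11.63, 12.24 and 12.64 to 13.05, 13.12 and 13.19. The groups did not overlap, and the dexamethasone libraries were packed far more tightly than the vehicle libraries (0.93 ± 0.13, adjusted p = 6.23e-04). Sgk1, a kinase that the receptor induces, rose by 0.38 ± 0.08, and the co-activator gene Ncoa1 by 0.36 ± 0.08 (adjusted p = 0.00787 and 0.0160).

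Known receptor targets had a median difference of 0.42, with 16 of 41 higher and 1 lower. The count was 17 and 1 without vehicle 1 and 15 and 0 without vehicles 2 and 5. Il6ra, the receptor subunit for interleukin 6, rose from 7.72, 7.98 and 8.65 to 9.10, 9.32 and 9.66 (1.24 ± 0.16, adjusted p = 4.2e-04). Sesn1, a leucine-sensing inhibitor of mTORC1, rose from 10.04, 10.53 and 10.63 to 11.14, 11.32 and 11.57 (0.89 ± 0.10, adjusted p = 1.93e-04). Cebpd, a transcription factor of the acute phase response, rose from 10.32, 10.90 and 11.06 to 11.18, 11.44 and 11.54 (0.61 ± 0.12, adjusted p = 0.00631). The groups were separate for these 3 genes. Ddit4, the mTORC1 inhibitor REDD1, differed from them in that vehicle 1, at 13, lay among the dexamethasone libraries of 12.85 to 13.22, while the other vehicle libraries were at 11.68 to 12.38. Ddit4 still rose by 0.87 (limma adjusted p = 0.00706). Tsc22d3, which encodes the anti-inflammatory protein GILZ and is a standard marker of receptor activity, showed no separation at this time point, at 12.51, 12.77 and 13.12 with vehicle and 12.62, 12.78 and 12.94 with dexamethasone. Its highest vehicle library was again vehicle 1.

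Among 40 genes of myostatin, activin and BMP signalling, the branch that restrains muscle growth and its growth-promoting counterpart, 4 rose and 0 fell (limma, 7 lower at an unadjusted p under 0.05), with a median of 0.01. Acvr1b, a type I receptor through which myostatin signals, was at 10.95, 11.21 and 11.51 with vehicle and at 11.72, 11.81 and 11.85 with dexamethasone, without overlap (0.55 ± 0.08, adjusted p = 0.00126). Tgfb3, a transforming growth factor beta ligand, rose from 10.14, 10.25 and 10.47 to 10.49, 10.73 and 10.83 (0.41 ± 0.07, adjusted p = 0.00311). The co-receptor gene Tgfbr3 rose by 0.50 ± 0.10 and Smad5, which carries BMP signals to the nucleus, by 0.28 ± 0.06 (adjusted p = 0.0101 and 0.00939). Mstn, myostatin itself, was at 10.10, 10.63 and 11.10 with vehicle and at 10.94, 11.16 and 11.42 with dexamethasone, with overlap, and did not pass (adjusted p = 0.0580). Without vehicles 2 and 5 the Mstn difference was 0.77 and passed (adjusted p = 0.00672), and the list then held 5 higher and 1 lower members.

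Wnt pathway genes showed a similar pattern, with 4 of 27 higher and 0 lower (limma, 4 lower at an unadjusted p under 0.05, and 5 higher and 2 lower without vehicle 1) and a median of −0.03. The 4 were a ligand, a receptor, a feedback inhibitor and a nuclear factor. Wnt11, a ligand of non-canonical Wnt signalling, rose from 7.21, 7.32 and 7.47 to 7.68, 7.98 and 8.22 (0.64 ± 0.08, adjusted p = 4.52e-04). Fzd4, a Frizzled receptor, rose by 0.49 ± 0.08, and Axin2, a scaffold that is itself a target of beta-catenin, by 0.59 ± 0.10 (adjusted p = 0.00297 and 0.00344). Tcf7l1, a largely repressive transcription factor of this pathway, rose from 7.51, 7.79 and 8.01 to 8.31, 8.48 and 8.59 (0.70 ± 0.09, adjusted p = 3.59e-04). In all 4 genes every dexamethasone library lay above every vehicle library. Frat1 and Frat2, which encode inhibitors of the kinase GSK3 and are not on that list, rose as well. Frat1 went from 8.06, 8.58 and 8.89 to 9.55, 9.64 and 10.05 (1.19 ± 0.14, adjusted p = 1.77e-04) and Frat2 from 9.32, 9.65 and 9.94 to 10.39, 10.49 and 10.66 (0.88 ± 0.09, adjusted p = 6.73e-05).

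Contractile and excitation genes were largely level. In 43 contractile protein genes 1 rose, Tcap, the titin cap protein telethonin, and 0 fell (limma, 2 lower at an unadjusted p under 0.05). In 36 genes of calcium handling and excitation, 3 rose and 2 fell (2 and 3 without vehicle 1, 3 and 1 without vehicles 2 and 5). Orai1, the store-operated calcium channel, fell by 0.22 on the log2 scale (SE 0.05, adjusted p = 0.0127), and Rrad is given above. The potassium channel subunit Kcnj11 was among the rises (0.20), past the threshold in only 2 of the 12 reduced fits (largest adjusted p 0.103).

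Neuromuscular junction and denervation genes leaned below 0, in 21 of 27 at a median of −0.10, while more were called higher than lower. The calls were 3 higher and 1 lower (limma, 3 higher and 4 lower at an unadjusted p under 0.05). Runx1, a transcription factor that rises in denervated muscle, was at 7.14, 8.13 and 8.53 with vehicle and at 6.92, 7.15 and 7.28 with dexamethasone (−0.87 ± 0.21, adjusted p = 0.0227). Its call ended without vehicle 5 or dexamethasone 4 (adjusted p up to 0.0580) and without vehicles 2 and 5 (0.114). Dok7, which activates the receptor kinase MuSK at the junction, rose by 0.31 ± 0.07 (adjusted p = 0.0219, and 0.0538 without dexamethasone 3). Musk (0.70, adjusted p = 0.0380) and the cell cycle inhibitor gene Cdkn1a (0.78, adjusted p = 0.0233) stayed past the threshold in 4 and 9 of the 12 reduced fits, with a largest adjusted p of 0.0901 and 0.0557. Without vehicles 2 and 5 the list held 1 higher and 0 lower members.

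Of 33 myogenic and satellite cell regulators, 2 rose and 2 fell (2 and 4 without vehicle 1, 1 and 2 without vehicles 2 and 5). Sox4, a developmental transcription factor, rose from 9.48, 10.18 and 10.83 to 11.24, 11.82 and 12.00 (1.62 ± 0.20, adjusted p = 3.24e-04). Nfatc1, a calcineurin-driven transcription factor that sustains the slow-fibre programme, fell from 10.88, 10.98 and 11.16 to 10.34, 10.51 and 10.71 (−0.51 ± 0.06, adjusted p = 3.42e-04). Neither gene had overlapping groups. Wwtr1, the Hippo pathway co-activator TAZ, fell by 0.28 on the log2 scale (SE 0.05, adjusted p = 0.00575), and Tbx15, a factor of glycolytic fibres, was 0.19 higher, with an adjusted p of 0.0179 and of 0.0525 without dexamethasone 4. Among 10 slow-fibre markers 0 passed in either direction (limma, 0 at an unadjusted p under 0.05).

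In 41 genes of fatty acid uptake and oxidation 6 rose and 1 fell (2 fell without vehicle 1). Of the 41 differences 32 lay above 0, at a median of 0.09 (0.05 without vehicle 1 and without vehicles 2 and 5). Ppara, the nuclear receptor that drives fatty acid oxidation, rose from 9.72, 10.05 and 10.61 to 11.10, 11.33 and 11.47 (1.22 ± 0.12, adjusted p = 6.23e-05). The fall was in Ppargc1b, the mitochondrial co-activator PGC-1 beta, from 8.02, 8.15 and 8.63 to 7.39, 7.59 and 7.67 (−0.66 ± 0.09, adjusted p = 7.13e-04). Both genes separated the groups fully, in opposite directions. Plin4, a coat protein of lipid droplets, rose from 13.82, 14.09 and 14.31 to 14.65, 14.67 and 14.76 (0.61 ± 0.07, adjusted p = 1.04e-04). Plin5, which ties droplets to mitochondria, rose by 0.67 ± 0.15 with overlapping groups, at 9.41 to 10.53 and 10.42 to 10.81 (adjusted p = 0.0172, and 0.0538 without vehicles 2 and 5). Ucp2, a mitochondrial carrier, rose by 0.64 ± 0.14 (adjusted p = 0.0149, and 0.0848 without vehicles 2 and 5). The remaining rises were the isomerase gene Eci2 (0.45, adjusted p = 9.35e-04) and the fatty acid sensor gene Ppard (0.42, adjusted p = 0.0129, and above 0.05 without vehicles 2 and 5). Without vehicles 2 and 5 the list held 4 higher and 1 lower members.

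Among 33 genes of lipid synthesis and storage, 3 rose (5 without vehicle 1) and 1 fell. G0s2, an inhibitor of the triglyceride lipase ATGL, rose from 7.12, 8.03 and 8.33 to 8.52, 8.85 and 9.19, without overlap (1.03 ± 0.20, adjusted p = 0.00757). Lpin1, a phosphatidate phosphatase of triglyceride synthesis, rose by 0.29 ± 0.05 (adjusted p = 0.00303), and Dgat2, which adds the final acyl chain, by 0.64 ± 0.15 (adjusted p = 0.0181, and 0.0593 with a spread shared by 4 groups). Mgll, the monoglyceride lipase that completes triglyceride breakdown, fell by 0.49 on the log2 scale (SE 0.07, adjusted p = 9.18e-04).

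In glucose handling, 2 of 45 listed genes rose (1 without vehicle 1) and 0 fell (limma, 1 lower at an unadjusted p under 0.05). Ppp1r3c, a subunit that directs protein phosphatase 1 to glycogen, rose from 14.38, 14.86 and 15.17 to 15.29, 15.34 and 15.41 (0.52 ± 0.10, adjusted p = 0.00715). The other, the fructose bisphosphate regulator gene Pfkfb1 (0.37), stayed past the threshold in 3 of the 12 reduced fits (largest adjusted p 0.106). No vehicle library reached the lowest dexamethasone library for Ppp1r3c.

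Transporters of amino acids, metals and other solutes split into a few large rises and a level majority: 3 of 27 rose (4 without vehicle 1), 1 fell, and the median was −0.01. Slc7a8, the neutral amino acid exchanger LAT2, rose from 9.53, 10.22 and 10.70 to 11.22, 11.54 and 11.67 (1.3 ± 0.16, adjusted p = 3.04e-04). Slc39a14, the zinc and iron importer ZIP14, rose from 10.08, 10.89 and 11.29 to 11.73, 11.88 and 12.39 (1.15 ± 0.18, adjusted p = 0.00129). Slc43a1, a leucine transporter also called LAT3, rose by 0.58 ± 0.10 (adjusted p = 0.00340). The groups were apart in all 3. Slc16a1, the lactate transporter MCT1, was 0.30 lower on the log2 scale, and its call ended without dexamethasone 4 and without vehicles 2 and 5 (adjusted p = 0.0188 with all libraries, 0.0989 without those vehicles).

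Several large housekeeping groups had no called member. Of 42 oxidative phosphorylation genes 0 were called, with differences from −0.05 to 0.07 (limma, 0 at an unadjusted p under 0.05), and of 39 ribosomal protein genes 0 were called, from −0.16 to 0.02 (0 at an unadjusted p under 0.05). Among 38 proteasome subunits 0 were called (limma, 3 lower at an unadjusted p under 0.05), and 34 of the 38 differences lay below 0 at a median of −0.04. Ribosome biogenesis had 0 of 34 called (limma, 1 lower at an unadjusted p under 0.05). Heat shock proteins had 0 of 29 called (limma, 2 higher and 2 lower at an unadjusted p under 0.05), with the 2 vehicle libraries high in Hspa1a described above. In 39 genes of the integrated stress and unfolded protein responses 1 rose and 2 fell (1 fell without vehicles 2 and 5). Chac1, a glutathione-degrading enzyme induced by the stress factor ATF4, fell from 9.45, 9.57 and 10.16 to 8.47, 8.64 and 9.05, without overlap (−0.98 ± 0.12, adjusted p = 3.42e-04).

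Breakdown, arrest and hormone lists moved in a few members each. Of 14 calpain and caspase genes 1 rose and 2 fell, at a median of −0.08 (0 rose without vehicle 1, 1 fell without vehicles 2 and 5). In 38 autophagy and lysosome genes 5 rose and 1 fell, but only 1 rose without vehicles 2 and 5, and 1 rose and 2 fell with quantile normalisation. Of 29 atrophy ubiquitin ligases 3 rose and 1 fell, though of these only Ubr2, which marks proteins by their first residue (0.37, adjusted p = 0.00329), kept its call in all 12 reduced fits, against 3 for the ligase gene Trim63. Of 26 negative regulators of mTORC1 and translation 3 rose and 0 fell (limma, 1 lower at an unadjusted p under 0.05), and of 33 insulin, IGF and growth genes 1 rose, the receptor gene Igf1r, and 1 fell, the adaptor gene Irs1, which stayed past the threshold in 2 and 8 of the 12 reduced fits (largest adjusted p 0.0945 and 0.0639). The Irs1 call also ended without vehicles 2 and 5. Among 32 genes of p53, arrest and senescence 3 rose and 4 fell, with 6 lower without vehicle 1 and 2 higher and 2 lower without vehicles 2 and 5. Trp53inp1, a p53-induced nuclear protein, rose by 0.63 ± 0.12 (adjusted p = 0.00449), and Eda2r, a receptor of the tumour necrosis factor family, fell by 0.70 on the log2 scale (SE 0.15, adjusted p = 0.0110). Vehicle and dexamethasone libraries overlapped for both. Amino acid catabolism had 3 of 31 higher (2 without vehicles 2 and 5) and 0 lower (limma, 0 lower at an unadjusted p under 0.05), with 28 of the 31 differences above 0. Metal, redox and iron genes had 2 of 31 higher, Lcn2 and Slc39a14, and 3 lower, of which 0 remained called without vehicles 2 and 5. The hormone handling list had 2 of 25 higher and 2 lower (0 lower without vehicles 2 and 5), and the complement and acute phase list 1 of 25 higher, Lcn2 again, and 0 lower (limma, 3 lower at an unadjusted p under 0.05), or 2 higher and 2 lower without vehicle 1. In 15 polyamine and creatine genes 0 rose (limma, 0 higher at an unadjusted p under 0.05) and Srm, spermidine synthase, fell by 0.31 on the log2 scale (SE 0.06, adjusted p = 0.00783). Adrenergic and cAMP genes had 2 of 27 higher, Pnmt among them (3 without vehicle 1, 1 without vehicles 2 and 5), and 1 lower (2 without vehicle 1), the kinase A regulatory subunit gene Prkar1a (−0.23 ± 0.05, adjusted p = 0.0107).

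Among 22 clock genes 1 was higher and 2 were lower (2 and 3 without vehicle 1, 1 and 1 without vehicles 2 and 5). These shares were 4.5% and 9.1%, beside 4.12% and 2.23% over all genes. Npas2, a partner of BMAL1, rose from 4.93, 5.00 and 5.12 to 5.46, 5.56 and 5.71 (0.56 ± 0.05, adjusted p = 3.92e-05). Bhlhe41, the repressor DEC2, fell from 11, 11.33 and 11.77 to 10.47, 10.70 and 10.80 (−0.68 ± 0.13, adjusted p = 0.00561), again without overlap. Its relative Bhlhe40 was 0.41 lower on the log2 scale and stayed past the threshold in 6 of the 12 reduced fits (largest adjusted p 0.0783). All muscles were taken at 1 interval after injection, so these values describe a single phase.

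**Figure D3:**
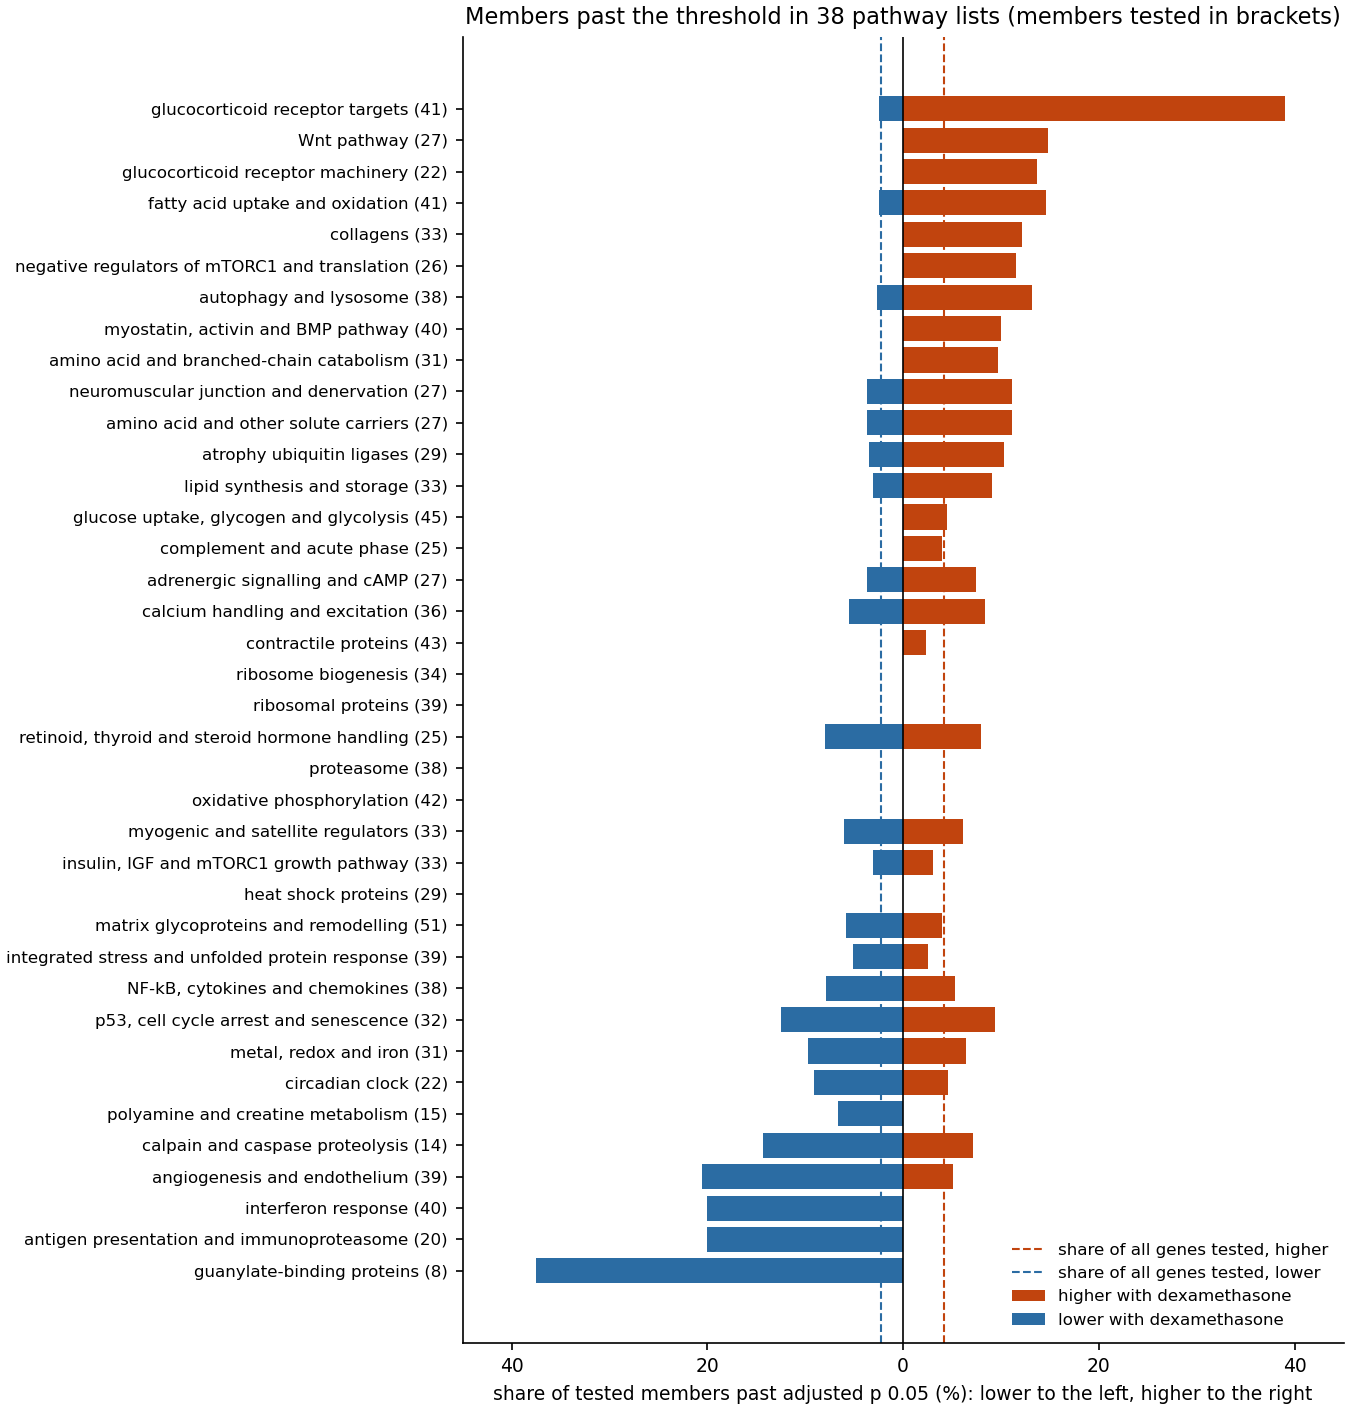
Share of tested members past a limma adjusted p of 0.05 in 38 pathway lists, with higher members to the right and lower to the left, the number tested in brackets, and dashed lines at the shares over all 12932 genes (4.12% higher, 2.23% lower). Receptor targets extend furthest to the right (16 of 41), and guanylate-binding proteins (3 of 8), antigen presentation (4 of 20), interferon response (8 of 40) and angiogenesis (8 of 39) furthest to the left.

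Of 39 angiogenesis and endothelium genes 8 fell and 2 rose, with a median of −0.14 (−0.09 without vehicles 2 and 5). The count of falls was 12 without vehicle 1 and 4 without vehicles 2 and 5, with 2 rises each time. Podxl, a sialomucin of the endothelial surface, went from 10.20, 10.39 and 10.85 to 9.28, 9.64 and 10.13 (−0.76 ± 0.14, adjusted p = 0.00387). Nrp1, a co-receptor for VEGF, went from 8.87, 9.46 and 9.69 to 8.31, 8.85 and 9.01 (−0.69 ± 0.15, adjusted p = 0.0131, and 0.0689 without vehicles 2 and 5). Tek, the angiopoietin receptor TIE2, went from 7.96, 8.41 and 8.60 to 7.44, 7.84 and 8.04 (−0.56 ± 0.12, adjusted p = 0.0105). The groups were apart for Podxl and overlapped for Nrp1 and Tek. The VEGF co-receptor gene Nrp2 fell by 0.30 on the log2 scale (SE 0.05, adjusted p = 0.00484), and the apelin receptor gene Aplnr by 0.58 (SE 0.12, adjusted p = 0.0123, and 0.0658 without vehicles 2 and 5). The other 3 lower members, Eng, Ephb4 and Erg, stayed past the threshold in 7, 5 and 6 of the 12 reduced fits (largest adjusted p 0.0656, 0.0683 and 0.0783).

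The fall was not shared by all endothelial genes. Sox17, a transcription factor of arterial endothelium, rose from 8.74, 9.13 and 9.60 to 9.61, 9.86 and 10.38 (0.81 ± 0.15, adjusted p = 0.00449), and Emcn, the sialomucin endomucin, rose by 0.28 ± 0.06 (adjusted p = 0.0121). Mmrn2, an endothelial matrix protein that is not on the list, fell from 8.90, 9.28 and 9.45 to 8.35, 8.48 and 8.76 (−0.71 ± 0.09, adjusted p = 4.52e-04), also with groups apart. The 12 endothelial markers, some of them shared with that list, had a log2 summed level of 13.77 to 13.99 with vehicle and 13.64 to 14.17 with dexamethasone, the groups overlapping, and none was listed at 0. Of these markers 1 was higher and 2 were lower (3 lower without vehicle 1, 1 without vehicles 2 and 5). In bulk muscle, fewer cells of a type and less RNA per cell cannot be told apart. The part of endothelial cell number in these differences was not tested.

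Of 33 collagen genes 4 rose and 0 fell (limma, 4 lower at an unadjusted p under 0.05). Col5a1 (chr2), a chain of the fibril-nucleating collagen V, rose from 8.35, 8.62 and 8.97 to 9.79, 10.04 and 10.30 (1.36 ± 0.11, adjusted p = 6.03e-06), far from the median of 0.01 for the collagen genes. Col4a4, a basement membrane chain, rose by 0.28 ± 0.05, and Col8a2, a short-chain collagen, by 0.31 ± 0.07 (adjusted p = 0.00358 and 0.0137). The other, Col4a3 (0.28), stayed past the threshold in 6 of the 12 reduced fits (largest adjusted p 0.0739). Adamts2, the protease that trims procollagen, rose from 7.73, 7.81 and 8.16 to 8.13, 8.47 and 8.71, the groups overlapping slightly (0.58 ± 0.11, adjusted p = 0.00640).

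Among 51 other matrix and remodelling genes, which include Adamts2, 40 differences lay below 0 at a median of −0.15 (−0.07 without vehicles 2 and 5), while 2 passed as higher and 3 as lower (3 and 5 without vehicle 1). Those were Timp4, Serpinh1 and Fbln5, which stayed past the threshold in 6, 4 and 8 of the 12 reduced fits (largest adjusted p 0.0664, 0.0995 and 0.0591), and 1 was higher and 0 were lower without vehicles 2 and 5. Markers of fibro-adipogenic progenitors, the stromal cells that make much of this matrix, leaned the same way: 13 of 14 were below 0, at a median of −0.33 (−0.19 without vehicles 2 and 5). Of these 1 passed as lower (3 without vehicle 1, 0 without vehicles 2 and 5), and the log2 summed level was 13.51 to 14.35 with vehicle and 13.09 to 14.53 with dexamethasone. None of the 14 was listed at 0. Their part in the matrix differences was not tested.

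All 20 antigen presentation and immunoproteasome genes had a difference below 0, at a median of −0.31, and 4 fell while 0 rose (limma, 0 higher and 17 lower at an unadjusted p under 0.05). Psmb8, a catalytic subunit of the immunoproteasome, was at 6.35, 6.56 and 6.94 with vehicle and at 5.80, 6.01 and 6.15 with dexamethasone, without overlap (−0.60 ± 0.10, adjusted p = 0.00173). Tap2, part of the peptide transporter that loads class I molecules, went from 7.78, 8 and 8.16 to 7.44, 7.56 and 7.80, with a narrow overlap (−0.41 ± 0.08, adjusted p = 0.00619). Its partner Tap1 fell by 0.60 on the log2 scale (SE 0.13, adjusted p = 0.0117). The class I gene H2-Q4 (−0.51) stayed past the threshold in 2 of the 12 reduced fits (largest adjusted p 0.0969), and it belongs to a family of near-identical copies among which reads may be divided.

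All 8 guanylate-binding proteins, interferon-induced GTPases, were below 0, at a median of −0.53, and 3 fell while 0 rose (limma, 0 higher and 6 lower at an unadjusted p under 0.05). Gbp9 went from 6.94, 7.46 and 7.52 to 6.26, 6.46 and 6.67 (−0.90 ± 0.11, adjusted p = 1.83e-04), the lowest vehicle library being vehicle 1. Gbp4 went from 6.32, 7.00 and 7.26 to 5.63, 5.82 and 6.33 (−1.06 ± 0.15, adjusted p = 6.48e-04), the groups touching through vehicle 1. In the GENCODE annotation, transcripts that share exons among Gbp4, Gbp8 and Gbp9 run on the same strand of chromosome 5, so how reads were divided among them is uncertain. The third, Gbp2 (−0.70), stayed past the threshold in 4 of the 12 reduced fits (largest adjusted p 0.0759). Without vehicle 1 the list held 6 lower members, and without vehicles 2 and 5 it held 2.

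The 40 interferon response genes had a median of −0.25, with 35 below 0 and 8 called lower against 0 higher (limma, 0 higher and 26 lower at an unadjusted p under 0.05). The count of calls moved with the libraries kept, to 17 without vehicle 1 and 1 without vehicles 2 and 5. The median moved less, to −0.31 and −0.25 in the same order. Among 38 genes of NF-kB signalling, cytokines and chemokines, 2 rose and 3 fell at a median of −0.16 (6 fell without vehicle 1, 2 without vehicles 2 and 5). Nfkbia, the inhibitor that holds NF-kB in the cytosol, rose by 0.65 ± 0.08 (adjusted p = 1.77e-04). Icam1, an adhesion molecule that NF-kB induces, fell from 6.79, 6.87 and 7.11 to 6.24, 6.49 and 6.68, without overlap (−0.44 ± 0.08, adjusted p = 0.00386). Il1b, the interleukin 1 beta gene, fell by 0.34 on the log2 scale (SE 0.07, adjusted p = 0.0114). Tnfrsf1a (−0.34) stayed past the threshold in 4 of the 12 reduced fits (largest adjusted p 0.0760).

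Markers of immune cells leaned the same way with 1 call. Of 13 macrophage markers 10 lay below 0, at a median of −0.22, and 1 passed as lower, the monocyte chemokine receptor gene Ccr2 (−0.49, adjusted p = 0.0174, and 0.0618 without vehicles 2 and 5). Their log2 summed level was 9.96 to 10.93 with vehicle and 9.72 to 10.62 with dexamethasone. Of 11 neutrophil markers listed only 6 had a mean high enough to be tested, and 5 of these lay below 0. Of 13 T, B and NK cell markers listed only 3 were tested, all 3 below 0. In limma 0 of them passed (3 neutrophil and 0 lymphocyte markers were lower and 1 neutrophil marker higher at an unadjusted p under 0.05). The log2 summed level of the 12 T, B and NK cell markers in the table overlapped, at 6.75 to 8.39 with vehicle (median 6.973) and 6.65 to 7.85 with dexamethasone (median 6.965). No marker in these lists was listed at 0. The part of these cells in the immune gene differences was not tested.

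Called genes also lay side by side on chromosomes, a pattern looked for after the values had been seen and given without a test. Of 809 called genes with a RefSeq position on GRCm38.p6, 135 were next to another gene called in the same direction among the 12731 tested genes with positions, in 60 runs, 45 of them higher and 15 lower. Runs of at least 3 genes numbered 9, of which 8 were higher. Calls over all tested genes were already 533 higher and 289 lower, so the excess of higher runs is not read as a trait of the runs. How many runs calls placed without regard to position would give was not worked out. On chromosome 11, a run of 4 covered 42.8 kb (chr11:98358367-98401196). Its last pair in map order moved most: Pnmt, the enzyme that turns noradrenaline into adrenaline, went from 6.76, 7.22 and 7.37 to 8.39, 8.76 and 8.88 (1.56 ± 0.10, adjusted p = 1.66e-06). Pgap3, which remodels lipid anchors of membrane proteins, went from 7.21, 7.35 and 7.44 to 8.37, 8.61 and 8.85 (1.25 ± 0.07, adjusted p = 3.6e-07). These genes run toward each other on opposite strands, the annotated end of Pnmt at 98388180 and that of Pgap3 at 98388672. Stard3, a cholesterol transporter of late endosomes, and Tcap, upstream of them, differed by 0.25 each (adjusted p = 0.0176 and 0.0141), a call that ended for Stard3 without vehicles 2 and 5 (0.0819) and for Tcap with quantile normalisation (0.0508). Beyond the run, Erbb2, a receptor tyrosine kinase gene, was level (0.03, adjusted p = 0.931), as was Cdk12 on the other side (−0.12, adjusted p = 0.735).

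The longest run held 7 genes over 1124 kb of chromosome 14 (chr14:121035168-122159603), all higher. Stk24, a kinase of the Hippo-related MST family also called MST3, was at 9.26, 9.37 and 9.56 with vehicle and at 10.07, 10.18 and 10.27 with dexamethasone (0.80 ± 0.06, adjusted p = 2.58e-06). Farp1, a guanine nucleotide exchange factor of small GTPases, went from 7.91, 8.17 and 8.34 to 8.54, 8.67 and 8.89, and Dock9, which activates Cdc42, from 9.43, 9.57 and 9.78 to 9.96, 10.07 and 10.36. In these 3 genes the groups were apart, with differences of 0.52 ± 0.08 for Farp1 and 0.51 ± 0.07 for Dock9 (adjusted p = 0.00133 and 6.6e-04). The run ended in smaller differences, 0.22 ± 0.05 for Ubac2, a ubiquitin-associated protein of the endoplasmic reticulum, and 0.21 ± 0.04 for Tm9sf2, an endosomal membrane protein (adjusted p = 0.0137 and 0.00478), the former ending without vehicles 2 and 5 (0.0664). B930095G15Rik, inside Farp1 on the same strand, rose by 0.42, and 1810041H14Rik, whose span overlaps that of Ubac2 on the opposite strand, was 0.63 higher and stayed past the threshold in 6 of the 12 reduced fits (largest adjusted p 0.0613). In the GENCODE annotation no exons overlap within either pair. The annotation used for counting and the use of strand are not given, so how reads were divided within these pairs is unknown. The next tested genes on either side, Ipo5 (−0.02) and Clybl (0.03), did not pass.

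On chromosome 6, a run of 4 over 229.7 kb (chr6:90369478-90599171) held the transcription factor gene Klf15, which directs amino acid catabolism. Klf15 went from 10.58, 11.07 and 11.26 to 11.43, 11.65 and 11.75 (0.62 ± 0.10, adjusted p = 0.00170). Zxdc, a zinc finger protein, rose by 0.70 ± 0.10, Cfap100, a cilia-associated gene, by 0.46 ± 0.07, and Aldh1l1, an enzyme of folate metabolism, by 0.43 ± 0.06 (adjusted p = 6.23e-04, 0.00201 and 6.16e-04). On chromosome 4, Wasf2, an activator of actin branching, rose by 0.79 ± 0.07 (adjusted p = 1.58e-05) between Ahdc1, a DNA-binding protein gene (0.42, adjusted p = 0.00189), and Map3k6, a stress kinase gene (0.61, adjusted p = 0.00234). Other runs placed Plin4 and Plin5 beside Lrg1, a secreted leucine-rich glycoprotein (0.76 ± 0.09, adjusted p = 2.26e-04), on chromosome 17 within 21.4 kb. Frat1 and Frat2 lay beside Arhgap19, a GTPase-activating protein (0.27 ± 0.06, adjusted p = 0.0132, and 0.0737 without vehicles 2 and 5), on chromosome 19 within 81.5 kb. The single lower run of 3 was Tap1, Psmb8 and Tap2 in the major histocompatibility complex on chromosome 17, within 28.8 kb, where the neighbouring class II genes H2-Ab1 (−0.71 ± 0.25) and H2-Aa (−0.69 ± 0.26) did not pass (adjusted p = 0.132 and 0.156). In the GENCODE annotation, exons of Plin4 overlap Hdgfl2, those of Tap1 overlap Psmb9 and those of Col5a1 overlap 2810430I11Rik, each on the other strand. Within the run on chromosome 6, exons of Zxdc and Cfap100 overlap each other on opposite strands. Those of Aldh1l1 overlap Gm45901 on the same strand and Gm15756 on the other. How reads were divided among these genes is unknown.

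**Figure D4:**
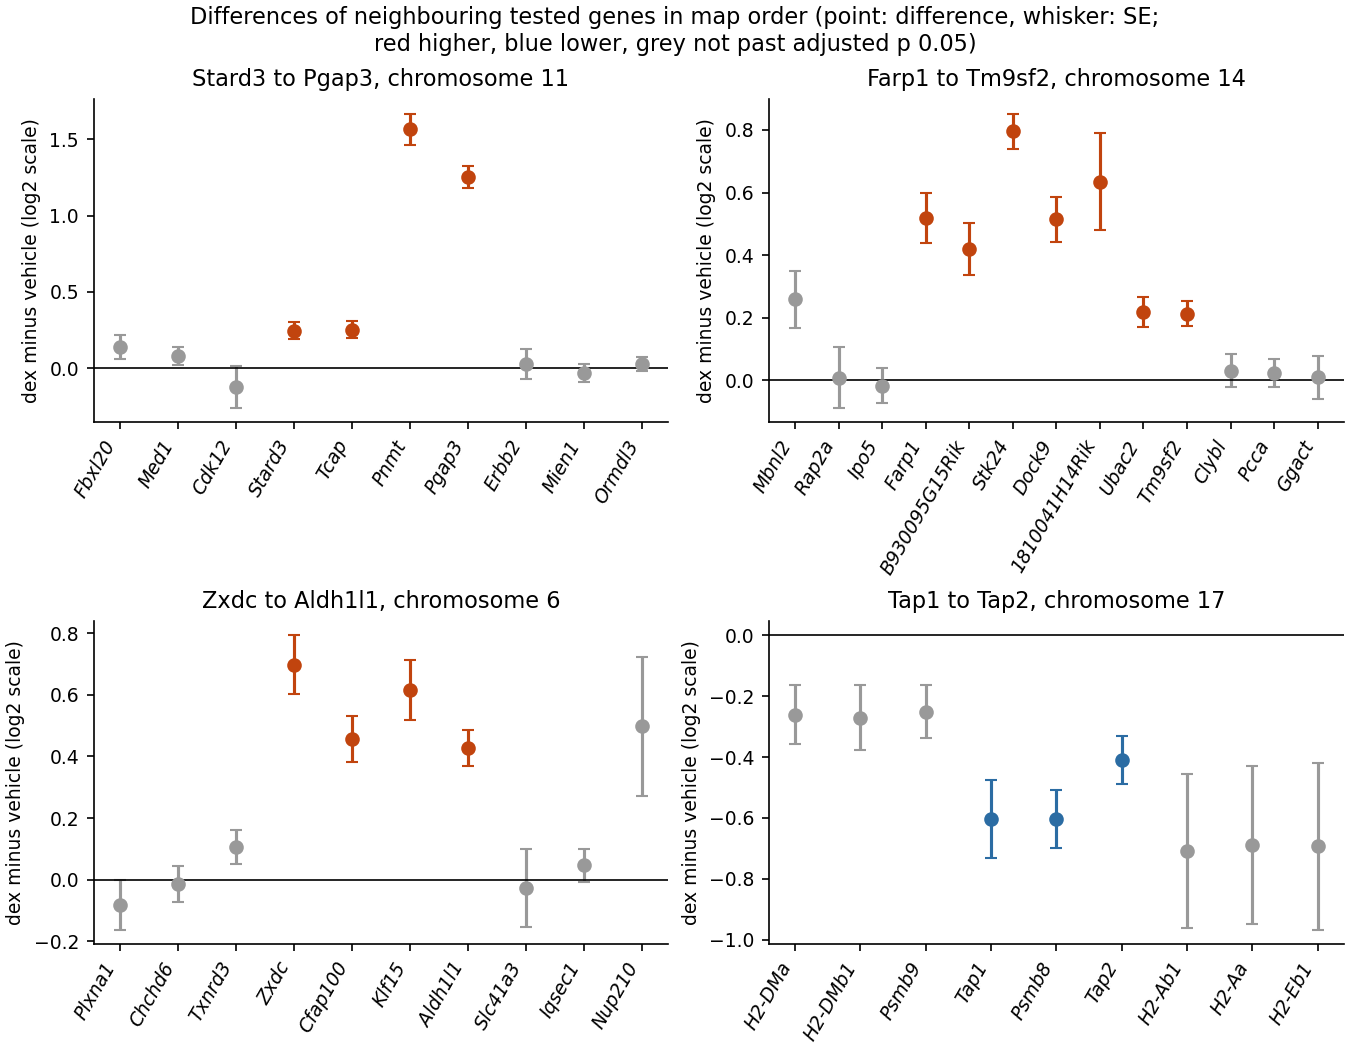
Difference between dexamethasone and vehicle (log2 scale, whiskers of 1 SE) for tested genes in map order, evenly spaced, in 4 runs of neighbouring called genes with the 3 tested genes on each side; red points are higher, blue lower and grey not past an adjusted p of 0.05. In the run on chromosome 11 the step is from 0.25 in Tcap to 1.56 in Pnmt and back to 0.03 in Erbb2, while around Tap1 on chromosome 17 all 9 differences lie below 0.

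Over most genes, libraries given dexamethasone resembled each other more than vehicle libraries did. The median SD over genes was 0.0904 with dexamethasone and 0.112 with vehicle, and the vehicle SD was the larger in 8550 of the 12932 genes, or 66.1%. Among the called genes the share was 68.6% (564 of 822). Nedd4l, a ubiquitin ligase that removes sodium channels, was at 9.96, 10.31 and 10.59 with vehicle and at 11.10, 11.15 and 11.20 with dexamethasone (0.86 ± 0.09, adjusted p = 1.01e-04). Prickle3, a planar cell polarity gene, was at 9.81, 10.48 and 10.72 and then at 11.10, 11.15 and 11.21 (0.72 ± 0.12, adjusted p = 0.00218). In both, tightly grouped dexamethasone libraries lay above a scattered vehicle group, as in Fkbp5. These genes were picked for their large ratio of vehicle to dexamethasone SD.

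Whether the response at 24 months differed from that at 4 months was tested in a model of all 24 libraries. No gene passed: 0 of 12676 were called, or 0%, and 393 (3.1%) had an unadjusted p under 0.05, 199 of them with a difference more positive in the aged and 194 more negative. The smallest p was that of Col5a1, whose rise was 1.36 ± 0.11 at 24 months and 0.58 ± 0.11 at 4 months (a gap of 0.78, limma unadjusted p = 4.6e-05, adjusted p = 0.277). Greb1 rose by 2.17 at the older age and by 1.5 at the younger, Pag1 by 1.86 and 1.02, and Frat2 by 0.88 and 0.31. Ppp1r10, a nuclear targeting subunit of protein phosphatase 1, rose in the aged by 0.75 ± 0.09 (adjusted p = 1.77e-04) and was 0.19 higher in the young (adjusted p = 0.299). Ephb1, an ephrin receptor, gave 0.44 ± 0.07 and 0.06 in the same order (adjusted p = 0.00189 and 0.533). Xpo1, the nuclear export receptor, fell in the aged by 0.27 on the log2 scale (SE 0.05, adjusted p = 0.00549) and was at −0.04 in the young (adjusted p = 0.681). Tbc1d1, which controls glucose transporter traffic, was 0.26 higher in the aged without passing (adjusted p = 0.0730) and fell by 0.32 in the young (adjusted p = 0.0358). These genes were picked for the smallest p among 12676 tests, and none of the gaps between ages passed adjustment.

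**Figure D5:**
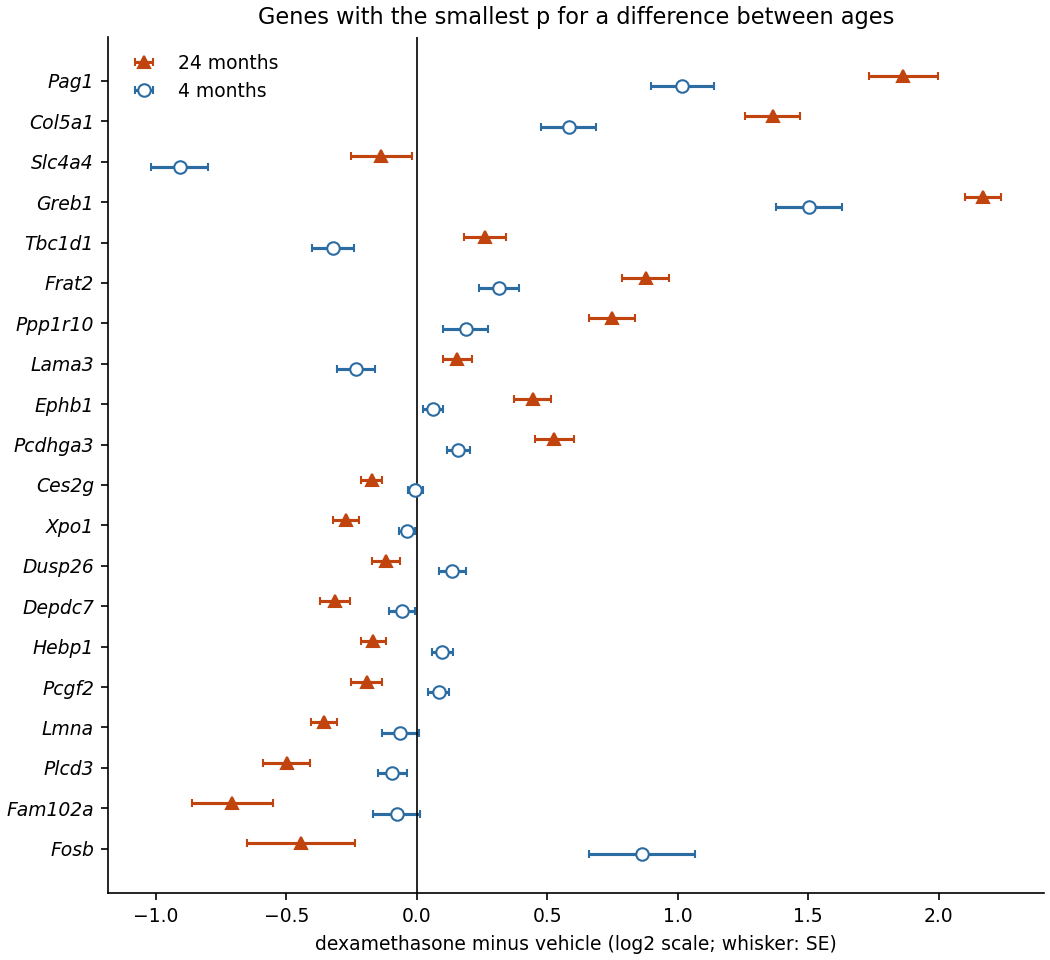
Difference between dexamethasone and vehicle (log2 scale, whiskers of 1 SE, 6 libraries a group) at 24 months (filled triangles) and at 4 months (open circles) for the 20 genes with the smallest p for a difference between ages, 10 in each direction. Triangles lie to the right of circles in the upper 10 genes, such as Col5a1 at 1.36 and 0.58, and to the left in the lower 10, but no gap passed adjustment (smallest adjusted p = 0.277).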

How the data were processed

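Polyadenylated RNA from snap-frozen tibialis anterior (300 ng a library) was sequenced with paired reads of 150 bases, per the labels' protocols. The deposited table holds log2 values (rlog), which the authors made with DESeq2 1.30.1 on mm10, per the submitters' processing notes. There, 619 genes were exactly 0 at 24 months and not at 4 months, as where each age is transformed apart. Aligner, counter, annotation and use of strand: not given in the sources used here. Counts were not used here, so depth is unknown. The labels name separate samples and not how animals map to them, so p-values measure the spread between these samples.

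Genes with a mean of at least 3 over the 12 libraries from 24-month mice, and not constant, entered limma 3.58.1 in R 4.3.3 (empirical Bayes with a trend, two-sided, Benjamini-Hochberg adjusted over all 12932 genes, threshold 0.05), with these 12 libraries alone. The filter left out 6056 genes at 0 in all 12 libraries and 5994 of lower mean. The difference between ages was an interaction term over 24 libraries and 12676 genes. Ages were compared only through differences within an age. The script was tested on simulated data.

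The named genes were the 20 largest rises and 20 largest falls among calls of mean at least 5 with every dexamethasone library on 1 side of the vehicle mean, the 15 largest statistics in each direction, the 10 smallest interaction p in each direction, the 10 largest ratios of vehicle to dexamethasone SD, and members of 52 lists of 1339 symbols (38 pathways, 14 sets of cell markers). Genes in neighbour runs were added after their values were seen. The contrast, members and lists were chosen with earlier results of these data known. Positions and promoters came from RefSeq on GRCm38.p6, matched by symbol for 12731 genes, and exon overlaps from the GENCODE vM21 annotation. Alternatives covered filters, scaling, the spread model, a replicate block and dropping each library. A few genes are not reported here.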

Additional observations from a re-analysis of the deposited data

Results flagged for a closer look

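In 122 groups of 6 libraries (61 genes at 24 months), 3 held a library whose gap to the nearest other, divided by the range of the group, passed Dixon's critical value for that size, where chance flags about 1 group in 20. Doc2b was lowest in dexamethasone 5, at 9.16 with the nearest library at 9.29 (ratio 0.693). Plin4 was highest in dexamethasone 3, at 14.76 with the nearest at 14.67 (ratio 0.793). Gbp4 was lowest among the vehicle libraries in vehicle 1, at 6.32 with the nearest at 6.94 (ratio 0.658).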

How the results depend on the processing

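The count of genes higher with dexamethasone stayed within 1.5 times of 533 in every alternative run (368 with a replicate block to 701 where 4 groups shared 1 spread), whereas the 289 lower genes became 528 where 4 groups shared 1 spread, 160 with a replicate block and 141 without vehicles 2 and 5, a setting chosen after seeing the data. Leaving out 1 library gave 411 to 614 higher and 167 to 433 lower genes, the lowest without dexamethasone 4 (181 without dexamethasone 5), and 391 to 522 higher and 178 to 304 lower genes without overlap (246 lower without dexamethasone 2). Counts without overlap can only stay or rise in the same genes when a library is dropped. The higher share of calls was 64.8%, against 57.0% with a shared spread, 69.7% with the block, 62.0% with libraries shifted to 1 median and 74.0% without vehicles 2 and 5. The replicate numbers gave no clear sign of pairing the libraries (correlations of their deviations from −0.576 to 0.247, 2 of 6 best matched by their own number). That cannot show that libraries of 1 number shared nothing. Under the block 528 genes were called, against 822 without it. Among the named genes that lost their call there were B930095G15Rik, Ncoa1, Nrp2, Tek, Tap1, Il1b, Srm and Prkar1a (limma adjusted p from 0.0511 to 0.0642) and Dok7 (0.0913). Others, such as Rrad, Mid1ip1, Nrp1, Ppard, Slc16a1, Arhgap19 and Ccr2, lost theirs under the block as well. Tsc22d3, not called, ranged from −0.0806 to 0.0426 with 1 library left out, and Hspa1a, not called, turned from −0.597 to 0.552 without vehicles 2 and 5. The cause of these shifts was not tested. The difference between ages had 0 calls in all 29 settings, with a smallest adjusted p of 0.0771 to 0.589. The unknown depth limits weakly expressed genes most.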

Other observations

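Of 7 erythroid markers, 2 were above the filter, and the globin genes Hba-a1, Hba-a2, Hbb-bs and Hbb-bt were each listed at 0 in every library from 24-month mice. The log2 summed level of the listed markers ran from 7.50 to 11.27 with vehicle and from 7.50 to 8.11 with dexamethasone. Fosb, an immediate early transcription factor subunit, was 0.44 lower on the log2 scale with dexamethasone at 24 months (adjusted p = 0.273) and 0.86 higher at 4 months (adjusted p = 0.0240). Its difference between ages, −1.31, had a limma unadjusted p of 3.12e-04 and did not pass adjustment.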
